A study of Mus musculus with 10 samples.

Results

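The Zfp genes are mouse genes named for zinc finger proteins, most of them DNA-binding proteins of the C2H2 type. Members were the autosomal protein-coding genes whose RefSeq symbol is Zfp followed by digits only, and 1 symbol of that form was left out by the rule. This gave 359 genes of 20665 autosomal protein-coding genes, on all 19 autosomes, with 90 on chromosome 7 and 41 on chromosome 17. Chaining members that lie within 500 kb of each other gave 45 chromosome clusters with 247 members, and 112 members stood alone. Reduced representation bisulfite sequencing was used in the study, an assay in which a restriction digest picks CpG-rich fragments and bisulfite turns unmethylated cytosines into bases read as thymine. The samples were mouse embryos at embryonic day 7.5, 5 labelled control and 5 labelled arsenic, and the labels give no strain, dose, route or number of embryos in a sample. The purpose stated for the series is a comparison of methylation between these groups. The deposited table carries 10 sets of counts with numbers but no group names, so no column was tied to a sample and no group comparison was made. Below, a library column, or column, means 1 of these sets.

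The level of a region is the share of methylated calls among all calls at its measured cytosines, in percent, summed over the 10 columns unless a column is named. The labels name embryos as the tissue, although their extraction text also mentions sperm DNA. A level is an average over all cells of a sample, so one between the extremes cannot be told apart as a mixture of cells or of alleles. A gene end is the window of 1000 bp on each side of the first or last base of the gene and was used with at least 3 measured positions, and the body is the gene between these windows. Of 718 member ends 315 were measured, 203 at the 5′ end and 58 at the 3′ end. Another 54 belong to genes whose strand was not given, because 59 of the 359 members have no entry in the RefSeq promoter table. Both ends were measured in 53 members, 1 end in 209 and no end in 97, bodies were measured in 243 members, and 37 members had neither. Zfp541 and Zfp352 were among those without a measured end or body. At least 10 reads covered each measured position in each column, and autosomal positions had a median of 26 to 48 reads, depending on the column. The limit of 3 positions left out ends such as that of Zfp120, whose 2 positions gave 6.83%. Just inside it were an end of Zfp524 at 88.3% and an end of Zfp704 at 67.6%, each with 3 positions.

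Many Zfp proteins join an array of zinc fingers, which reads DNA, to a KRAB domain, which recruits the corepressor TRIM28 and with it the histone methyltransferase SETDB1, heterochromatin protein 1 and DNA methylation. These KRAB zinc finger genes arose by repeated local duplication, lie in clusters of related copies and are known mainly for silencing transposable elements and for holding methylation at imprinted regions in the early embryo. Their finger array is usually encoded by the last exon, near the 3′ end, and that part of such genes is known to carry heterochromatin marks in many cells while the promoter stays open. The symbol alone does not mark a KRAB gene: Zfp36 encodes an mRNA-binding protein with another kind of finger, and Zfp598 a ubiquitin ligase that senses collided ribosomes. Proteins were not analysed here, so the members were not divided by domain.

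The promoters printed here carry the main contrasts among the members. They come from RefSeq for GRCm38, the assembly of mm10, run 5′ to 3′ along the gene from 250 bases before to 50 bases after a listed start, and capitals mark CpGs at which 1 or both strands were measured. Zfp61 on chromosome 7 shows a start inside the gene that was unmethylated. Zfp977, Zfp640 and Zfp958 share an arrangement of motifs described further on and differed in level. The upstream and the inner start of Zfp217 lie on opposite sides of the range.
Zfp61, chr7:24299500-24299799, minus strand: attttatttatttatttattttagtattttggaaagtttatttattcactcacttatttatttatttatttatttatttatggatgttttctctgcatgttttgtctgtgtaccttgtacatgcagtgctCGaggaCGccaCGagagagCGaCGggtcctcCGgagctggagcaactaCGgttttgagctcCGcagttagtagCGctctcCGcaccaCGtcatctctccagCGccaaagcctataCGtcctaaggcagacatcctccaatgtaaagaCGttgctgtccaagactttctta
Zfp977, chr7:42592496-42592795, minus strand: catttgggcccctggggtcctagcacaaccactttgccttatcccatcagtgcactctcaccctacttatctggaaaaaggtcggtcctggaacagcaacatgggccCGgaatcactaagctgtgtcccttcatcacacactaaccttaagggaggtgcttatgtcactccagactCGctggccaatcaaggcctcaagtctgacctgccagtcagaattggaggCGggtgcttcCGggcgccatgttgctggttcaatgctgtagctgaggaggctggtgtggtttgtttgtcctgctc
Zfp640, chr13:66680754-66681053, minus strand: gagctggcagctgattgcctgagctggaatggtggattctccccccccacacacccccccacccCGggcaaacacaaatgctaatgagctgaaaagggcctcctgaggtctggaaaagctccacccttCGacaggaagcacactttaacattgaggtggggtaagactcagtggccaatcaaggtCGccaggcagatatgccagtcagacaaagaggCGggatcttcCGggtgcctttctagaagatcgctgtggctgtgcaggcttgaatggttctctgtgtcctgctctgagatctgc
Zfp958, chr8:4612920-4613219, plus strand: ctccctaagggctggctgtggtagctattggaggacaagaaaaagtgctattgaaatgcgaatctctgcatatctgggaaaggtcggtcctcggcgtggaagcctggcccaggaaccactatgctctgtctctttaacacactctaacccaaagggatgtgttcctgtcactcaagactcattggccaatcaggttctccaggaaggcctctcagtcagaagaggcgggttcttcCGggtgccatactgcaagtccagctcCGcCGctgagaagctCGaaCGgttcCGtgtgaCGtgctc
Zfp217 upstream start, chr2:170142626-170142925, minus strand: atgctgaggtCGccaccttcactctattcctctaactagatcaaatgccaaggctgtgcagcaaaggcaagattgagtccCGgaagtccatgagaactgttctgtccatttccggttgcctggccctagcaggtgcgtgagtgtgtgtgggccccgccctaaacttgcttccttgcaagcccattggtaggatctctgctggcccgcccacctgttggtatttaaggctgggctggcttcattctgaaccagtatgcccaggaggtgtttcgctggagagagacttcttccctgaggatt
Zfp217 inner start, chr2:170131171-170131470, minus strand: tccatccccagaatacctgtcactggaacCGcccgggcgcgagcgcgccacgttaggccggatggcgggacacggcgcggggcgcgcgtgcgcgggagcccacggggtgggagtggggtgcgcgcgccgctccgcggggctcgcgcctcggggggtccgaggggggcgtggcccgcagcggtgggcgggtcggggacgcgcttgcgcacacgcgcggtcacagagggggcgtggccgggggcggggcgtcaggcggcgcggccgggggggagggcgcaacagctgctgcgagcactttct

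Zfp genes were unmethylated where they begin and methylated inside and where they end. The 203 5′ ends had a median level of 2.01%, and the median in single columns ran from 1.81% to 2.40%. Of these ends 88.2% were under 20%, against 82.7% of the 10156 5′ ends of all other genes, whose median was 2.17%. The 58 3′ ends had a median of 68.6% and column medians from 62.3% to 71.0%, against 59.8% at 4040 3′ ends of other genes. The 243 bodies had a median of 63.2%, with column medians from 61.6% to 66.1%, against 58.1% in 13667 bodies of other genes. Levels above 80% were reached by 49 Zfp bodies, or 20.2%, and by 8.78% of other bodies. With the calls of all regions summed, the level was 41.6% at Zfp 3′ ends and 40.1% at those of other genes. Zfp bodies had 51.9% by that measure and other bodies 51.1%. The differences were thus smaller in summed calls than in medians over genes. Over all 315 ends, whatever their side, 223 were under 20%, 78 lay from 20% to 80% and 14 were above 80%. The median of all ends was 3.21%, against 5.65% for other genes. This median depended on the window, with 1.72% at 500 bp and 10.5% at 2000 bp, and the difference from other genes shrank to -0.274 points at 500 bp and to -0.654 points with at least 10 positions. These values over the family are descriptions with no test, since the members were chosen by name with earlier results known. In every column the median of all Zfp ends was below that of other genes, by 1.96 to 2.69 points. The median of Zfp bodies was above that of other bodies, by 4.03 to 6.39 points. The median of all ends depends on the mix of sides, with 203 5′ and 58 3′ ends in Zfp genes and 10156 and 4040 in others. At 5′ ends alone column medians overlapped, and column 6 had 2.20% in Zfp genes and 2.17% in others. At 3′ ends the Zfp median was the higher one. All these columns share the same genes and positions.

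**Figure D1:**
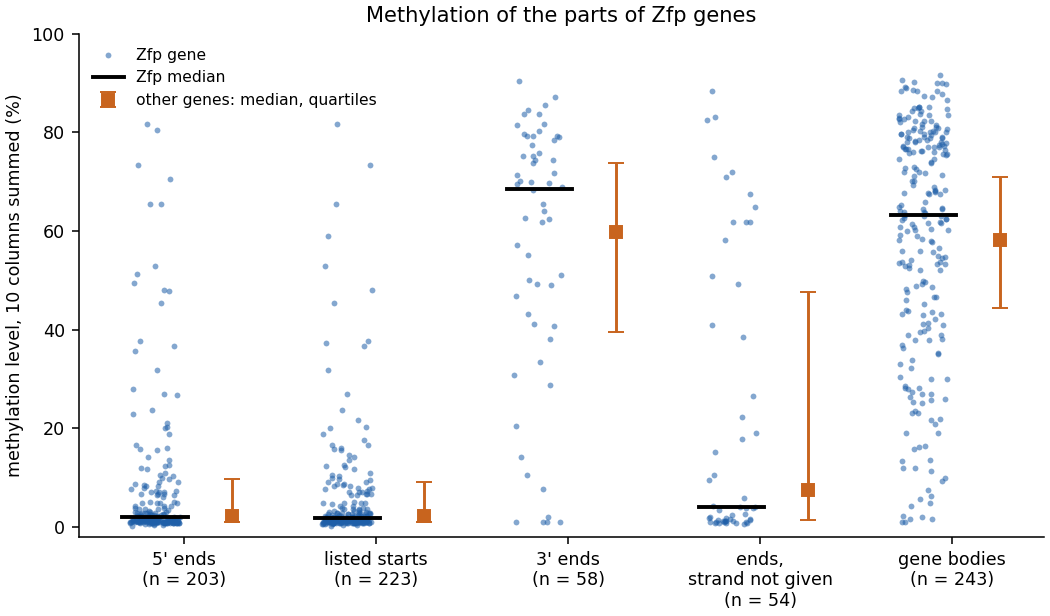
Methylation level in percent over the 10 summed columns for each measured Zfp 5′ end, listed start, 3′ end, end without a given strand and gene body (points, with the Zfp median as a line), beside the median and quartiles of all other autosomal protein-coding genes (squares with bars). The 5′ ends and listed starts gather near 0, with medians of 2.01% and 1.88%, and the 3′ ends and bodies spread upward, with medians of 68.6% and 63.2%.

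Among ends with at least 10 positions, the lowest belonged to Zfp326, Zfp653, Zfp91, Zfp704, Zfp958, Zfp637, Zfp180 and Zfp646. The 5′ end of Zfp326 was at 0.223%, from 5374 calls at 24 positions, with a 95% Wilson interval from 0.128% to 0.390%, and its columns ran from 0% to 0.482% with a median of 0.330%. Such intervals cover counting error only and are too narrow, because calls on the same read are not independent. The 5′ end of Zfp653 was at 0.515% and that of Zfp91, a ubiquitin ligase with zinc fingers, at 0.572%. The other 5 ran from 0.683% in Zfp704 to 0.744% in Zfp646. The end of Zfp646 holds the same 123 positions as the 5′ end of its neighbour Zfp668, so these are 1 measurement. The ends of Zfp786 and Zfp398, Zfp942 and Zfp943, Zfp944 and Zfp758, Zfp784 and Zfp580, and Zfp78 and Zfp28 also share all of their positions pair by pair and are counted once for each gene. Columns of these low ends overlapped throughout, and the small differences among them are within their range.

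At 24 of the 203 5′ ends the level was 20% or more. In 8 of them the promoter table places the start more than 1000 bp inside the gene, and that start was under 20%. In 14 members with both regions measured, the listed start lay more than 1000 bp inside the 5′ gene end. Zfp61 had 70.6% at the 5′ gene end, with columns from 67.1% to 75.5% and a median of 70.5%. Its listed start, 4291 bp inside, was at 1.54% over 52 positions, with columns from 0.742% to 2.96%, so the columns of the end and the start did not overlap. In the Zfp61 promoter printed above all 14 CpGs were measured and had a level of 1.01%. Zfp771 had 80.4% at the gene end and 1.25% at a start 1530 bp inside. With a window of 2000 bp, which takes in that start, the gene end of Zfp771 read 37.8%. Zfp638 had 51.3% at the gene end and 0.681% at a start 47285 bp inside, and Zfp580 had 65.4% and 1.34%. Zfp229 had 47.8% and 2.22%, Zfp428 27.9% and 1.29%, Zfp536 22.9% and 3.75%, and Zfp451 49.4% and 14.6%. The remaining 6 of the 14, among them Zfp445 and Zfp423, were under 20% at both places. Counted at listed starts in place of gene ends, 223 members had a median of 1.88% and 92.8% of them were under 20%, against 2.17% and 83.4% for 10739 other genes.

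Few listed starts were methylated. Counting 1 start a gene, the highest was that of Zfp872 in the chromosome 9 cluster, at 81.7% over 8 positions, with columns from 77.9% to 85.0% and a median of 83.4%. Zfp652 followed at 73.3%, with columns from 67.3% to 78.4%, and Zfp784 at 65.4% from 5 positions that it shares with the gene end of Zfp580. The coverage of the Zfp872 end was 2.51 times, and that of the Zfp652 end 3.37 times, the level of a typical autosomal position. Related copies elsewhere in the genome could share such reads, and their part in these levels was not tested. In all, 10 of the 315 ends had more than 2 times the typical coverage, among them ends of Zfp978, Zfp213, Zfp7, Zfp763 and Zfp69, and the median over all member ends was 1.01. The high ends of this group were thus 3, Zfp872, Zfp652 and Zfp7, the last at 83.1% over 9 positions, and the other ends in it were under 20%.

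In 4 members, measured starts of the same gene lay on both sides of 20%. Zfp217, whose human counterpart is amplified in breast cancer, had 59.0% around its upstream start and 1.03% around the inner one. Columns ran from 51.3% to 70.3% upstream and from 0% to 5.24% at the inner start and did not overlap. As the printed sequences show, the upstream promoter holds 7 CpGs and the inner one 49, at 79.0% G and C. Within these 300 bases the levels were 59.9% from 3 positions and 0.497% from 2 positions. Zfp27 had 53.0% and 3.63%, Zfp72 had 68.2% and 4.79%, and Zfp982 had 69.5% and 8.24% at the respective starts. The low start held more CpGs than the high one in each of these 4 genes, with 13 against 1 in Zfp27, 4 against 1 in Zfp72 and 16 against 5 in Zfp982.

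Those Zfp starts with few CpGs that were measured were mostly unmethylated. Starts were sorted by the CpGs in their 300 bases, with 1 start a gene, and the level was read within 1000 bp of the start. With 5 to 14 CpGs, 83 Zfp genes had a median of 2.22% and 91.6% were under 20%. In 2446 other genes of that class the median was 9.07% and 64.1% were under 20%. Column medians ran from 1.96% to 2.98% in Zfp genes and from 8.65% to 9.49% in the others. With fewer than 5 CpGs only 10 of 26 Zfp genes were measured, with a median of 6.07% and 7 under 20%. Of 4483 other genes 720 were measured, with a median of 49.95% and 15.3% under 20%. The measured shares were 38.5% and 16.1% here, and 64.3% and 68.7% with 5 to 14 CpGs. Unmeasured starts have no level. Zfp starts of the lowest class held a median of 3 CpGs and those of other genes 2. From 15 to 24 CpGs the medians were 1.73% in 87 Zfp genes and 1.82% in the others, and with 25 or more they were 1.17% in 43 and 1.35% in the others. The difference between Zfp and other genes was thus seen in the classes below 15 CpGs. Of the measured positions inside all promoter sequences, 141264 of 141268 fell on a CpG of the RefSeq sequence, which ties the table's coordinates to the assembly printed here.

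**Figure D2:**
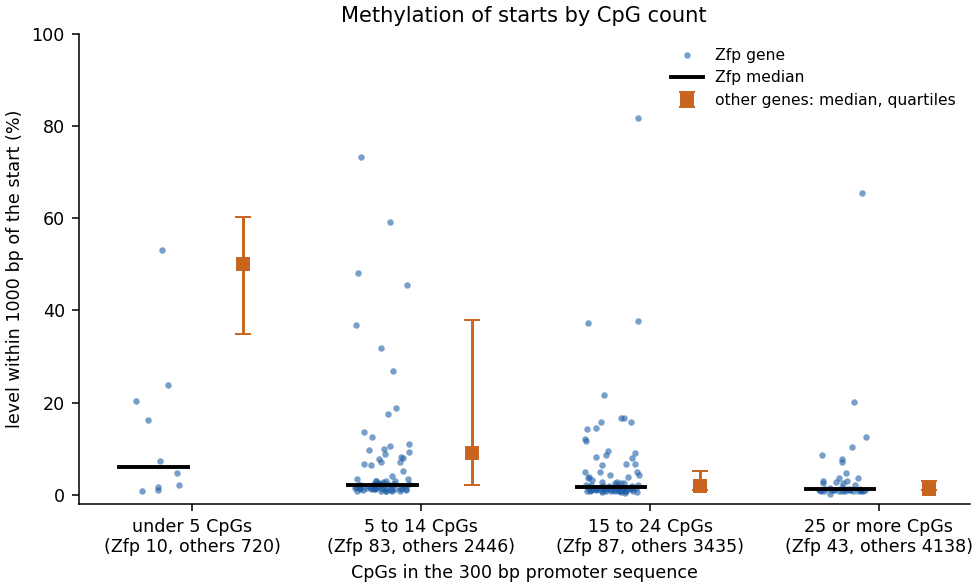
Methylation level in percent within 1000 bp of a listed start (1 per gene), sorted by the number of CpGs in the 300 bp promoter sequence, for Zfp genes (points, median as a line) and for all other genes (squares with bars, median and quartiles). In the class with 5 to 14 CpGs the Zfp median is 2.22% and that of the others 9.07%, and above 14 CpGs both are below 2%.

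Promoter motifs were counted on both strands in 362 listed Zfp starts and in 19723 starts of other genes. The restriction site CCGG of the enzyme usual for this assay was present in 73.5% of Zfp starts and in 63.3% of others, and the TATA box, TATAAA, in 6.91% and 12.8%. The CCAAT box, CCAAT, was present in 47.8% of Zfp starts and 37.9% of others, and its longer form CCAATCA in 22.1% and 8.73%. CCGGAAG, which ETS factors can bind and which overlaps CCGG by its first letters, was present in 22.4% and 11.7%. Both of the 7-letter motifs occurred together in 23 Zfp starts of 19 genes, or 6.35%, and in 194 starts, or 0.984%, of other genes. In 13 of these 19 Zfp genes the first CCGGAAG match began 45 to 55 bases after the first CCAATCA match, on either strand. This was so in 25 of 184 other genes. The opposite order of the motifs was not counted. Copies that share an ancestor share such stretches, so the 13 genes are not independent.

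The shared arrangement did not go with a single level. Zfp977 holds CCAATCA at base 183 and CCGGAAG on the other strand at base 232, Zfp640 holds them at 175 and 224, and Zfp958 at 186 and 232. Zfp977 had 48.0%, with columns from 36.0% to 58.1% and a median of 48.3%. Zfp640 had 36.7%, from 26.2% to 46.6% with a median of 37.5%, and its columns overlapped those of Zfp977. Zfp958 had 0.717% within 1000 bp and 0.552% in the printed promoter, and all of its columns lay below all columns of the other two. The promoters of Zfp977 and Zfp640 hold 6 CpGs each and that of Zfp958 holds 12. Among the other genes with this spacing, Zfp972 had 23.7% and Zfp951 13.6%, and most were not measured within 1000 bp, such as Zfp936, Zfp938, Zfp965, Zfp966, Zfp967, Zfp968 and Zfp973. A motif match describes letters only.

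Around the listed start the low region was narrow, in Zfp genes as in other genes. In the 500 bp before and after the start, Zfp positions together had 2.45% and 2.54%. Between 500 and 1000 bp they had 10.7% upstream and 9.09% downstream. From 1500 to 2000 bp the level was 51.9% upstream and 35.9% downstream, from 17 and 22 genes. Other genes had 3.85% and 4.03% in the 500 bp before and after the start, and 11.7% and 8.94% from 500 to 1000 bp. From 1500 to 2000 bp they had 31.1% upstream and 32.4% downstream. Farther out the Zfp bins rested on 16 to 25 genes each and moved up and down between 28.8% and 57.0%. Over the 5000 bp before the 3′ end, with positions near any listed start left out, Zfp bins lay between 39.0% and 73.6%. The highest was at 2500 to 3000 bp before the end. In other genes these bins lay between 54.8% and 61.7%, with 60.3% in the bin where Zfp genes were highest. In the 500 bp before the 3′ end Zfp positions had 49.7% and other genes 55.7%. In the 500 bp after it the levels were 47.2% and 52.4%, and from 500 to 1000 bp after it 31.6% and 47.7%.

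**Figure D3:**
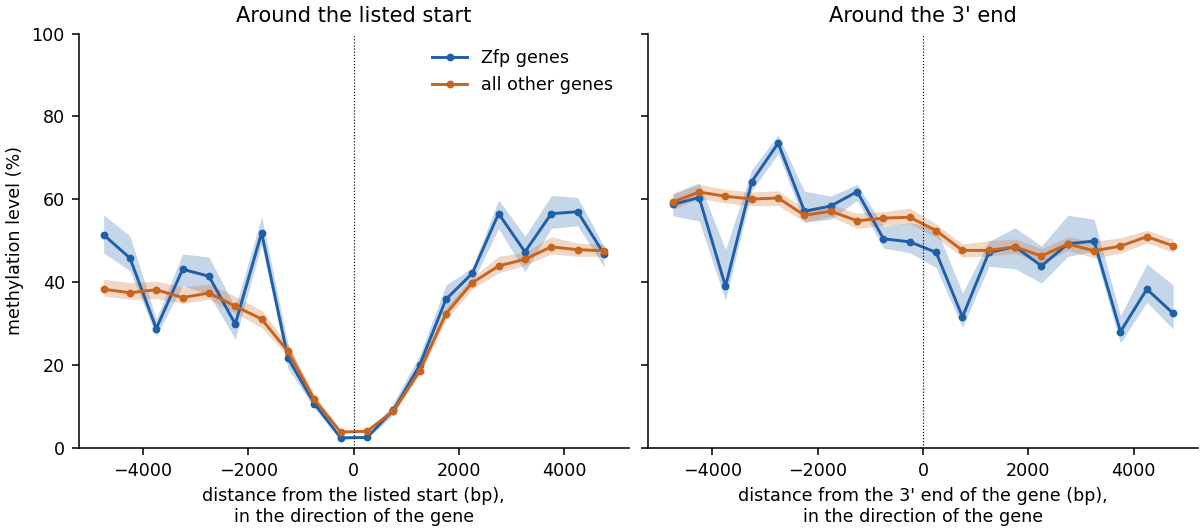
Methylation level in percent in bins of 500 bp by distance in bp from the listed start (left) and from the 3′ end of the gene (right, positions 2000 bp or more from any listed start), in the direction of the gene, for Zfp genes and all other genes. Lines are the 10 summed columns and shading spans the columns, and Zfp positions stay at 2.45% and 2.54% in the bins next to the start.

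Within single genes the 3′ end was above the 5′ end in 39 of 43 members with both measured, by a median of 54.8 points, and the column medians of that difference ran from 51.4 to 59.2 points. Among 3113 other genes the median was 48.4 points and 82.6% were higher at the 3′ end. In Zfp507 the 5′ end was at 0.782%, with columns from 0.309% to 1.48%, and the 3′ end at 85.5%, with columns from 80.6% to 94.2%. In Zfp219 the ends were at 1.11% and 81.6%, in Zfp691 at 0.822% and 79.2%, and in Zfp747 at 1.40% and 79.6%. In these 4 genes every column of the 3′ end lay above every column of the 5′ end. Zfp407, whose strand was not given, had 1.12% at the end of higher coordinate and 82.5% at the other. The 3′ end of Zfp219 fell to 69.7% with a window of 2000 bp and that of Zfp691 to 67.0% with 500 bp. The highest 3′ end with at least 10 positions was that of Zfp566, at 87.1% over 37 positions with columns from 85.5% to 89.3%, and Zfp335 reached 80.3%. From 5 positions the 3′ end of Zfp27 read 90.4%.

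The order was reversed in 4 members. Zfp771 was one of them, with 80.4% at the 5′ gene end and 1.04% over 145 positions at the 3′ end, and every column of the former was above every column of the latter. Zfp580 had 65.4% and 7.67%. These are genes from the group with a listed start farther inside. Zfp174 and Zfp53 had both ends low, at 2.58% and 0.973% and at 2.11% and 1.03%. The 3′ window of Zfp174 holds the listed start of Zfp597, and that of Zfp78, at 1.12%, holds the listed start of Zfp28. Of the 8 Zfp 3′ ends under 20% these 2 held the start of another gene, against 1 of the 50 higher ones, that of Zfp628 at 33.4%. The other low 3′ ends were those of Zfp36, Zfp503 and Zfp423, given below.

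Bodies were mostly above the 5′ ends of the same genes. The body was above the 5′ end in 125 of 135 members, by a median of 62.2 points, and the 10 exceptions were 20% or more at the 5′ end except Zfp597, with 1.26% there and 0.973% in the body. The highest bodies were those of Zfp933 at 91.6%, Zfp27 at 90.6%, Zfp26 at 90.1% and Zfp952 at 90.003%, each with all columns above 86%. In the body of Zfp933 columns ran from 86.2% to 94.9% with a median of 91.9%. Of 23 bodies under 20%, 13 hold a listed start of their own or another gene. Taking only positions at least 2000 bp from any listed start, 223 bodies had a median of 71.3% and 27.4% were above 80%, against 62.9% and 12.3% in 12717 other genes. Among the 10 low bodies with no listed start inside were Zfp503 at 4.89%, Zfp703 at 9.93%, Zfp316 at 16.4%, Zfp467 at 13.4%, Zfp369 at 4.37% and Zfp934 at 6.20%, of which Zfp703, Zfp369 and Zfp934 have no entry in the promoter table. Coverage was above 2 times the typical value in 11 bodies, among them Zfp68 at 89.7% and Zfp507 at 88.4%.

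Of the members known for roles at imprinted genes, Zfp57 and Zfp445 were low at their starts, as most members were. Zfp57, which binds methylated imprinted regions and brings TRIM28 to them, had no measured 5′ gene end. Around its 2 listed starts, which shared 23 positions, the level was 3.31%, with columns from 2.12% to 6.24% and a median of 3.08%. Its 3′ end had 79.2% over 7 positions, with a median of 79.5%, 1 column at 64.2% and the highest at 87.9%, so the start and the end did not overlap. The body of Zfp57, which holds the start, was at 25.9%, and 9 of its positions away from listed starts had 76.4%. Zfp445, which acts beside Zfp57 at imprinted regions, had 1.41% at the 5′ end, with columns from 0.334% to 3.30%, and 43.1% in the body. Zfp568, a repressor of the placental Igf2 promoter that mouse embryos need at this stage, had 1.80% at its measured end, whose orientation was not given, and 81.5% in the body. At that end 9 columns lay between 0.681% and 1.79% and column 3 stood apart at 8.24%.

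Members known for silencing retroelements were low at their starts, as most genes were. Of measured listed starts 92.8% were under 20% in Zfp genes and 83.4% in other genes. Zfp809, which recognises the primer binding site of murine leukaemia viruses, had 1.17% at the 5′ end, with columns from 0.403% to 3.48%, and 67.6% in the body. Its end read 34.6% with a window of 2000 bp. Zfp932, which binds endogenous retroviruses in embryonic stem cells, had 2.26% at the 5′ end, with columns from 0.699% to 4.58%. Zfp708, which binds a retrotransposon family in the early embryo, had 2.26% at its listed start over 24 positions and 27.3% in a body that holds that start. The 8 body positions of Zfp708 away from listed starts had 83.0%. Zfp819, which is linked to repeat silencing in stem cells, had 6.70%, with columns from 2.95% to 12.9%. In Zfp809 and Zfp708 the start lay below the body with no overlap of columns, and the bodies of Zfp932 and Zfp819 were not measured.

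Members known for other roles were low at an end as well, and 70.8% of all Zfp ends and 63.9% of those of other genes were under 20%. Zfp143, which binds many promoters, had 1.23%, Zfp148 had 1.04% and Zfp281, a regulator of the exit from pluripotency, 0.791%. Zfp462 had 1.19%, Zfp410, an activator of Chd4, 3.94%, and Zfp37, a gene active in testis, 0.829%. Zfp296, which is expressed in pluripotent cells, had 1.51% at the 5′ end and 71.4% at the 3′ end, and Zfp148 84.6% at a 3′ end of 4 positions. The 3′ end of Zfp217 was at 75.2%. Zfp750, which drives epidermal differentiation, was the exception in this group, at 38.6% from 6 positions with columns from 33.1% to 46.6%, at an end whose orientation was not given.

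Zfp503, Zfp423 and Zfp36 were low at the 3′ end too. Zfp503, a factor of the striatum and limb, had 4.84% at the 5′ end, 10.5% at the 3′ end and 4.89% in the body over 211 positions. Zfp423, known in cerebellum and fat cell development, had 7.34%, 14.2% and 39.8%, and its body without the surroundings of listed starts 48.0%. Zfp703, whose strand was not given, had 1.23% and 22.3% at its ends and 9.93% in the body, but the higher end read 1.53% with a window of 500 bp, 2.79% with at least 20 reads and 1.90% from the plus strand alone. Zfp36, which encodes the mRNA decay factor tristetraprolin, had 1.63% at the 5′ end and 2.07% at the 3′ end. Its columns ran from 0.683% to 2.61% and from 1.54% to 2.55% and overlapped. Zfp598, the ribosome collision sensor, had 3.69% at the 5′ end and 79.6% in the body, and its 3′ end was not measured.

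Medians of members in clusters of 2 or more and of solitary members lay apart at both ends and in the body. Their column medians did not overlap, but at the 3′ end this did not hold for the larger clusters. The difference was not tested. All columns share the same genes and positions, so their lack of overlap does not measure the spread between genes. The 136 5′ ends of clustered members had a median of 2.29%, with column medians from 2.08% to 2.99%, and the 67 of solitary members 1.30%, from 1.28% to 1.73%. At the 3′ end the medians were 62.5% for 34 clustered members, with column medians from 54.7% to 63.9%, and 73.1% for 24 solitary ones, from 70.7% to 75.4%. The bodies of all clustered and of solitary members had medians of 65.2% and 60.5%, with column medians from 64.3% to 68.5% and from 58.1% to 61.9%. An end was measured in 68.8% of clustered members and in 82.1% of solitary ones. The largest cluster holds 23 members from Zfp160 to Zfp13 at chr17:21008941-23599755. Of its 16 measured 5′ ends, which include both such pairs on this chromosome, 15 were under 20%, the median was 2.08%, and Zfp229 was the exception at 47.8%. Its bodies ranged from 2.14% in Zfp52, which holds a listed start, to 87.8% in Zfp942. The lowest and highest ends of this cluster were those of Zfp40 at 0.763% and the 3′ end of Zfp820 at 83.8%.

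Chromosome 7 held clusters of different kinds. The cluster of 15 members from Zfp84 to Zfp146 held no other protein-coding gene, had 8 of 9 5′ ends under 20% with a median of 2.27%, and a body median of 78.0%. Its ends ran from 0.800% in Zfp84 to 90.4% in Zfp27. The cluster of 6 from Zfp628 to Zfp580 had 4 measured 5′ ends with 2 under 20% and a body median of 28.5%. The other 2, those of Zfp784 and Zfp580 at 65.4%, hold the same 5 positions and are 1 measurement. The listed start of Zfp580 farther inside was at 1.34%. In this cluster Zfp524 had 0.889% at one end and 88.3% at the other, where a window of 2000 bp gave 25.9%. The cluster of 14 from Zfp180 to Zfp526 had 5 measured 5′ ends from 0.728% in Zfp180 to 70.6% in Zfp61, and its 3′ end of Zfp428 was at 75.2%. In the clusters from Zfp141 to Zfp819 and from Zfp553 to Zfp646 the ends ran from 0.898% in Zfp719 to 48.0% in Zfp977 and from 0.744% in Zfp668 to 80.4% in Zfp771. The end of Zfp719 read 39.9% with a window of 2000 bp. Zfp606 at 0.915% and the 3′ end of Zfp324 at 68.9% bounded the cluster from Zfp551, and Zfp667 at 1.03% and the 3′ end of Zfp787 at 64.05% that from Zfp787.

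Clusters on the other chromosomes differed in how much of them was measured. The 16 members from Zfp990 to Zfp933 on chromosome 4 had 4 with a measured end, among them Zfp933 with 1.81% at the 5′ end and 74.3% at the 3′ end, and a body median of 74.0% over 7 genes. The 20 members from Zfp640 to Zfp273 on chromosome 13 had 7 with a measured end, from 1.501% in Zfp273 to 36.7% in Zfp640, and a body median of 46.3%. All 9 members on chromosome 6 from Zfp786 to Zfp775 had a measured 5′ end under 20%, from 1.14% in Zfp282, and the 3′ end of Zfp956 there was at 69.8%. All 5 members on chromosome 9 from Zfp560 to Zfp846 were between 0.944% in Zfp426 and 1.70% in Zfp846. The next cluster on chromosome 9 held both Zfp653 at 0.515% and Zfp872 at 81.7%. In the chromosome 8 cluster from Zfp709 to Zfp961 the ends ran from 0.987% in Zfp617 to 14.2% in Zfp709, and in the chromosome 2 cluster from Zfp970 to Zfp931 from 2.13% in Zfp971 to 23.7% in Zfp972. In the chromosome 17 cluster from Zfp871 to Zfp414 they ran from 1.01% in Zfp871 to 49.2% in Zfp870.

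**Figure D4:**
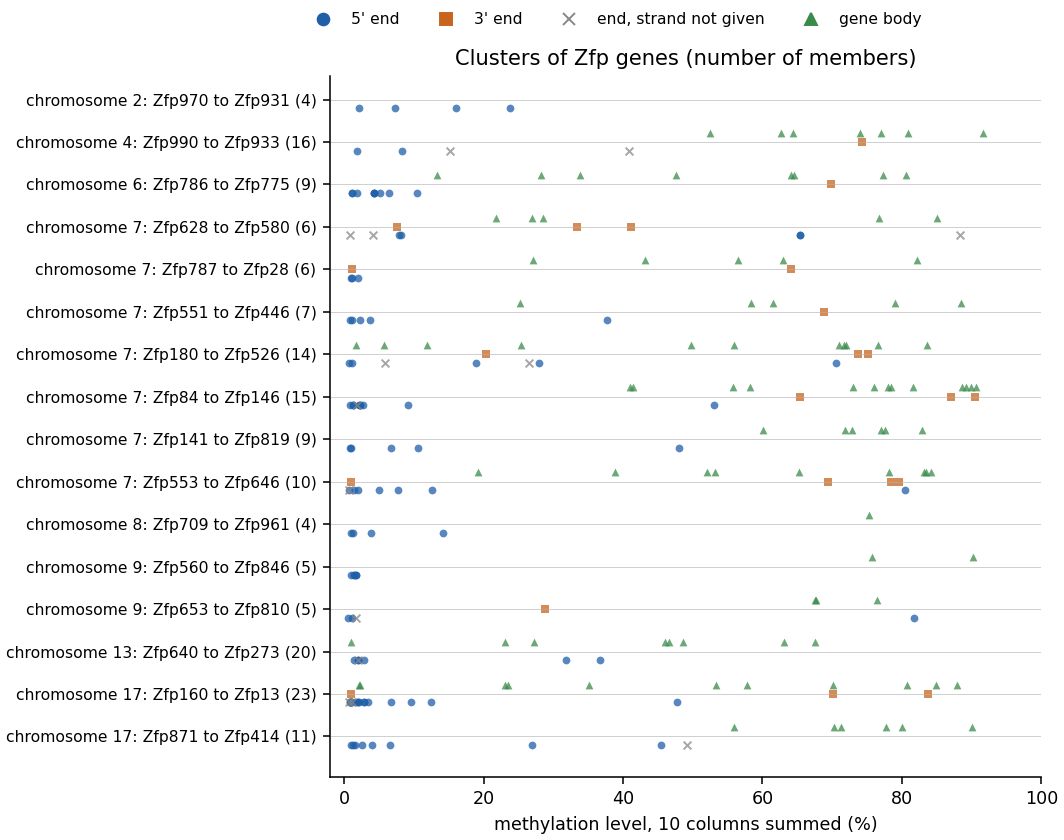
Methylation level in percent over the 10 summed columns of each measured end and body in chromosome clusters of Zfp genes, with 5′ ends, 3′ ends, ends without a given strand and bodies as separate symbols, 1 line per cluster and the number of members in brackets. In nearly every cluster the 5′ ends lie at the left, with the exceptions named in the text, such as Zfp872 at 81.7% and Zfp771 at 80.4%, and the bodies spread to the right.

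Single ends varied between columns by different amounts. Among ends with at least 10 positions and 1000 calls in each column, the widest range was at Zfp341, whose 3′ end ran from 62.2% to 74.7% with a median of 68.0%. The 5′ end of Zfp335, at 16.5%, ran from 11.9% to 23.5% with a median of 16.3%, and read 34.9% with a window of 500 bp. The end of Zfp978, at 15.2% with 3.13 times the typical coverage, ran from 9.74% to 21.3%, and the 3′ end of Zfp69 from 64.4% to 75.6%. Low ends moved less, the median range over columns being 3.19 points at Zfp 5′ ends and 11.4 points at Zfp 3′ ends. In other genes the ranges were 2.91 and 14.3 points. The Zfp 5′ ends held a median of 24 positions and the Zfp 3′ ends 15. Since a column could be of either group, a difference between arsenic and control embryos at these ends would be part of these ranges and was not tested.

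**Figure D5:**
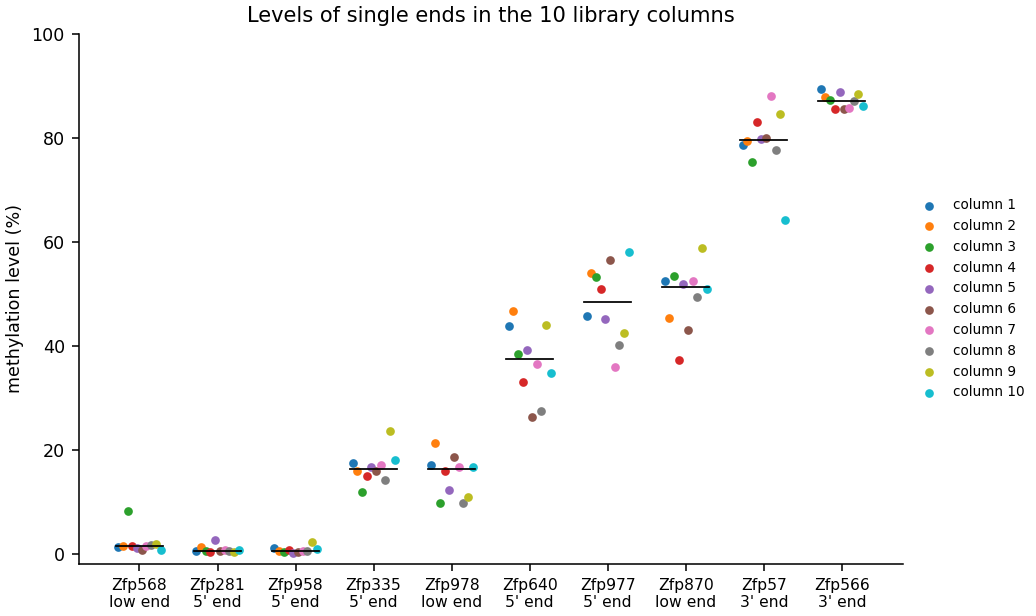
Methylation level in percent of 10 single Zfp ends in each of the 10 library columns (coloured points, with the median as a line), where low end means the end of lower coordinate in a gene without a given strand. Column 3 of Zfp568 stands at 8.24% above the other 9, and the columns of Zfp977 spread from 36.0% to 58.1%.

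Intermediate ends were mostly made of intermediate positions. At the 78 ends from 20% to 80%, 69.6% of 1263 positions were themselves in that range, 16.9% were under 20% and 13.5% above 80%. In 22 of these ends every position lay from 20% to 80%, and 8 ends held positions of both extremes. Zfp451 was one of the 8, with 5 positions under 20%, 4 between and 2 above 80% at its 5′ gene end.

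Other zinc finger families were read the same way. The 46 ends of Zbtb genes, which pair fingers with a BTB domain, had a median of 3.50%, and the 9 ends of Zkscan genes, which carry SCAN and KRAB domains, 2.01%. The Zbtb ends included 28 5′ and 12 3′ ends, and the Zkscan ends 5 5′ ends and 4 without a given strand. Medians over all ends depend on this mix of sides. The 11 ends of Zscan genes had 27.7%, 6 of them at 20% or more, but their 7 5′ ends had 3.06%, and the 27.7% became 1.83% with a window of 500 bp and 4.65% with at least 10 positions. Of 21 cofactors of KRAB proteins and partners in heterochromatin and DNA methylation, among them Trim28, Setdb1 and Dnmt1, 23 ends had a median of 1.21%. Of these 18 were under 20%, 3 between and 2 above 80%, and by side 18 were 5′ and 4 were 3′ ends. The bodies of these cofactors had a median of 72.1% and 7 of 20 were above 80%. Over all genes 64.0% of ends were under 20%, 32.1% between and 3.86% above 80%, and 8.98% of bodies were above 80%. These lists are small, and no difference between them and the Zfp genes was tested.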

How the data were processed

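DNA of 10 samples of mouse embryos at day 7.5 was measured by reduced representation bisulfite sequencing. The authors used Trim Galore, Bismark and methylKit with the genome build mm10, per the submitters' processing notes. Tool versions were not given in the sources used here. In the deposited table, per the file headers, the values are raw counts for each cytosine position and library column, namely coverage, methylated calls and unmethylated calls, and they were used without normalization. Summed coverage over 2101419 autosomal positions was 72552177 to 126221363 per column, and each position had at least 10 reads in every column. Because positions under that coverage in any column are not in the table, levels describe the shared part of the libraries. Of the rows 2 repeated a position and were left out. None of the 10 columns could be tied to a sample by name, so the planned permutation test of arsenic against control was not run, and values are given as median and range over columns.

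Gene positions and symbols came from the RefSeq table of GRCm38, and strand and listed starts from the RefSeq promoter table. Orientation, listed starts and bodies away from them were added after the data were seen, as was the search for the motif pair. Levels were computed in Python 3.11.15 with numpy 2.4.6 and pandas 2.3.3, and the scripts were tested on simulated data. The members and lists were chosen with earlier results of these data known. Genes named by rule are the 8 highest and 8 lowest ends with at least 10 positions, the 6 genes with the largest difference between such ends, the highest and lowest end of clusters with at least 4 members measured at an end, the 4 ends with the widest range over columns, and a list of well-known members. The other genes named, in the paragraphs on starts, motifs, bodies and coverage, were chosen after their values were seen. Alternatives changed the window, the number of positions, the coverage minimum, the weighting, the strand, shared windows, the chaining distance and the columns used.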

Additional observations from a re-analysis of the deposited data

Results flagged for a closer look

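In 14 of 89 ends and summary values examined, the highest or lowest of the 10 library columns was flagged. It stood farther from its nearest neighbour than Dixon's criterion at the 95% level allows. For values with a normal spread, chance does this in about 1 of 20. Levels at low ends lie close to the bottom of the scale. Some ends, such as the 5′ end of Zfp335, were named for their wide range over columns. The ends of Zfp646 and Zfp668 are 1 measurement. The share flagged can therefore not be set against that rate. Most of the flagged values were low ends with 1 column slightly higher. Column 3 of the Zfp568 end was at 8.24% against 0.681% to 1.79% in the others. The 5′ end of Zfp281 was at 2.70% in column 5, of Zfp273 at 3.26% in column 10, of Zfp445 at 3.30% in column 6, of Zfp719 at 2.94% in column 2, of Zfp933 at 2.84% in column 1 and of Zfp958 at 2.23% in column 9. The end of Zfp524 at the lower coordinate was at 2.67% in column 10 and the other end at 96.8% in column 9, against 85.1% to 91.3% in the others. The 5′ end of Zfp335 was at 23.5% in column 9, against 11.9% to 18.01%. At 3′ ends, Zfp507 was at 94.2% in column 4, against 80.6% to 87.3%, and Zfp820 at 96.0% in column 10, against 79.7% to 86.7%. Zfp148 was at 74.1% in column 6, against 83.2% to 90.8%, and Zfp57 at 64.2% in column 10, against 75.3% to 87.9%. The groups of these columns are not known.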

How the results depend on the processing

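No paired analysis was possible because the columns carry no sample, and the division of members by KRAB motif was not run, as no protein table was used. Of 289 alternatives for the family's summary values 234 stayed within the limit (1 SD over columns, or 1.5 times for a count), 55 moved and 0 reversed. Leaving out 1 column moved 1 of them: the Zbtb median, 3.50% with all columns, was 2.77% without column 4 and 2.77% to 3.71% over the 10 columns left out in turn. Of 618 alternatives for 81 named ends 53 moved, and 12 ends changed class. The cause was not tested. A window of 500 bp gave a median of 1.72% for all Zfp ends, 39 ends from 20% to 80%, 8 above 80%, 1.46% at 5′ ends, 55.9% in bodies, 2.30% over clusters, 1.25% for Zbtb, 1.83% for Zscan, and Zfp minus other genes of -0.274 points at ends and 3.85 points in bodies. A window of 2000 bp gave 10.5% for all ends, 138 and 30 ends in these classes, 3.04% at 5′ ends, 67.6% in bodies, 13.1% over clusters, 11.4% for cofactors, 9.78% for Zbtb, 39.2% for Zscan, 4.84% for Zkscan, and differences of -4.40 and 6.02 points. At least 10 positions gave 2.14%, 48 and 6 ends, 1.70% at 5′ ends, 63.3% at 3′ ends, 60.5% in bodies, 59.7 points between the ends of a gene, 2.61% over clusters, 1.48% for Zbtb, 4.65% for Zscan, and -0.654 and 2.87 points. At least 1 position gave 4.27% for ends and over clusters, 3.345% for cofactors, 33.8% for Zscan and -3.03 points. At least 20 reads gave 2.58%, 1.54% at 5′ ends, 67.2 points between ends, 6.31% for Zbtb, 3.20% for Zscan and -1.74 points. The plus strand alone gave 2.43%, 1.75% at 5′ ends, 65.4% at 3′ ends, 16.7% for Zscan and -1.73 points. Shared windows counted once gave -2.67 points, chaining within 200 kb gave 3.49% over clusters, and bodies away from listed starts, an alternative added after seeing the data, 71.3%. Depth limits single low ends, whose columns overlap.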

Other observations

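Genes that lie inside a Zfp cluster without being members gave other levels in some clusters. In the chromosome 13 cluster from Zfp640 to Zfp273, 8 member bodies had a median of 46.3% and 5 bodies of other genes 80.5%. Of these member bodies, those of Zfp708, Zfp759, Zfp458 and Zfp459 hold a listed start of their own. Away from listed starts, Zfp708 had 83.0%, Zfp458 58.2% and Zfp459 44.5%, and Zfp759 had no position. The bodies of Zfp429, Zfp455, Zfp65 and Zfp748 rest on 3 to 7 positions. In the chromosome 7 cluster from Zfp141 to Zfp819, 5 member 5′ ends had a median of 6.70% and 5 of other genes 51.6%, and the bodies had 74.9% and 59.0%. In the chromosome 17 cluster from Zfp871 to Zfp414, 8 member 5′ ends had a median of 3.26% and 3 of other genes 46.2%. In the chromosome 7 cluster from Zfp553 to Zfp646, where more genes were measured, 7 member 5′ ends had 4.95% and 15 of other genes 2.16%. These counts are small and no test was made.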
